A study of Homo sapiens with 6 samples.

Results

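Transcripts of 10 glutathione transferases were followed in the established colorectal cancer line KM12, of human origin, with and without overexpression of CDO1. The 10 genes, GSTP1, GSTM2, GSTM3, GSTM4, GSTA4, GSTO1, GSTK1, MGST1, MGST2 and MGST3, were taken by symbol from a table of 27134 genes, and all 10 had a row and passed the filter on low values. The CDO1 product is an iron enzyme that oxidises free cysteine, the amino acid whose supply limits glutathione synthesis. RNA was sequenced from 3 libraries of KM12 cells labelled as overexpressing CDO1 and 3 of mock cells labelled as control, all at passages 10 to 15. The labels do not give the vector, whether a group was 1 clone or a pool, or whether libraries stem from different cultures. P-values therefore cover only library-to-library spread, which may be technical.

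Glutathione transferases join the thiol of glutathione to reactive or oxidised compounds, which marks the products for export, and several also reduce lipid peroxides. The soluble enzymes fall into classes named alpha, mu, omega, pi and others. The kappa enzyme lies in mitochondria and peroxisomes, and the membrane-bound MGST enzymes form a family of their own. Colon epithelium and colorectal tumours are known for a high level of the pi enzyme, GSTP1.

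Reads assigned to genes totalled 17516640 to 22198173 per library, and all values below are read counts divided by the library's size factor (normalised counts). CDO1 stood at 2332.78 to 2483.91 normalised counts with overexpression and at 68.11, 0 and 0 in mock replicates 1, 2 and 3 (a count of 0 leaves room for an expected count of up to 3 reads). In the authors' deposited comparison CDO1 itself did not pass (log2 fold change 0.09, adjusted p = 0.416). The 10 colorectal epithelial markers summed to 194261 to 208063 in the CDO1 libraries and 144609 to 153138 in the mock libraries. Most of that sum was KRT8, with a mean of 122713 with CDO1 and 86833 in mock. Of these 10 markers 8 rose, against 11.3% of all genes tested. Markers of other cell types with a row in the table were mostly scarce, though none was at 0 in every library. In every library 2 of liver summed to 0 to 1.95, 2 of leukocytes to 1.95 to 17.0 and 3 of endothelium to at most 82.4. The 2 of fibroblasts summed to 130 to 151 with CDO1 and 204 to 293 in mock. Of these, COL1A1 stood at 184 to 257 in mock, above the epithelial marker VIL1 at 133 to 158. COL1A1 fell by 1.12 on the log2 scale with CDO1 (limma adjusted p = 1.69e-06). Mock replicate 1 stood apart in several scarce transcripts besides CDO1, with KDR at 47.50 against at most 0.98 in the other mock libraries and GSTM1 at 9.86 against at most 0.98. In the CDO1 libraries KDR stood at 5.47 to 11.94. The part of these traces in the results below was not tested, and values without that library are given beside each named gene whose call they change.

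Sequence likeness bears on how far the mu class genes can be told apart by short reads, so a matching stretch of coding sequence is shown for GSTM4, GSTM2 and GSTM3 from GENCODE release 29 transcripts, with capitals for the bases that differ from GSTM4. Positions count from the first base of the start codon and are 100 to 219 in GSTM4 and GSTM2 and 112 to 231 in GSTM3.
GSTM4: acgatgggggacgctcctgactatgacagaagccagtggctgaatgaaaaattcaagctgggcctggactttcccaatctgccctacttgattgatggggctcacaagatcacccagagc
GSTM2: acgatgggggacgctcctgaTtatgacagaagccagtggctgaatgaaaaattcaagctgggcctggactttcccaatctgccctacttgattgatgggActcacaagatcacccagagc
GSTM3: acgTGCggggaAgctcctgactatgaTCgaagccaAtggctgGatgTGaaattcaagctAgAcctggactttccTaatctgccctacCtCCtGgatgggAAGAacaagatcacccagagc

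In these 120 bases GSTM2 differed from GSTM4 at 2 and GSTM3 at 21. Over the whole coding sequence GSTM2 and GSTM4 were 89.1% identical, with a longest identical run of 78 bases, while GSTM3 was 70.3% identical to GSTM2 and 72.8% to GSTM4, with longest runs of 19 and 23 bases. Of the 50-base words of the principal coding transcript, 74.5% of those of GSTM2, 18.6% of GSTM4 and 5.90% of GSTM3 also occurred, on either strand, in a transcript of another gene. For words of 100 bases the shares were 63.6%, 4.49% and 2.66%. GSTM1 held the most of the words of GSTM2 (46.2% at 50 bases) and of GSTM4 (16.9%). For GSTO1 the share was 3.36% at 50 bases, all in the pseudogene GSTO3P, and for GSTP1, GSTA4, GSTK1 and the 3 MGST genes it was 0. How the authors assigned such reads is not given in the sources used here, so the level of GSTM2 in particular is uncertain, while GSTM3 and the members outside the mu class are little touched.

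In the CDO1 libraries 7 of the 10 members rose, 1 fell and 2 did not pass the test. A gene is said to have risen or fallen where limma's test across all genes gave an adjusted p under 0.05. All 3 mu class members rose, by 1.53-fold to 1.77-fold as ratios of mean normalised counts, as did GSTP1, GSTK1, MGST2 and MGST3 by 1.18-fold to 1.29-fold. MGST1 was the member that fell, and GSTO1 and GSTA4 did not pass. Of all 21775 genes tested, 24.0% were called, 11.3% higher and 12.7% lower. Among the 10941 with a mean of at least 100 normalised counts, a level that 8 of the members reach, 36.3% were called. The libraries of the 2 groups did not overlap in 8 of the 10 members, against 37.1% of all genes tested. The median log2 fold change was 0.32 over the members and -0.00 over all genes tested. The members were chosen with earlier results of these data known, so these counts do not describe the family as a whole. Of 9 other soluble transferase genes tested, 1 rose and 2 fell, with a median log2 fold change of -0.04.

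**Figure D1:**
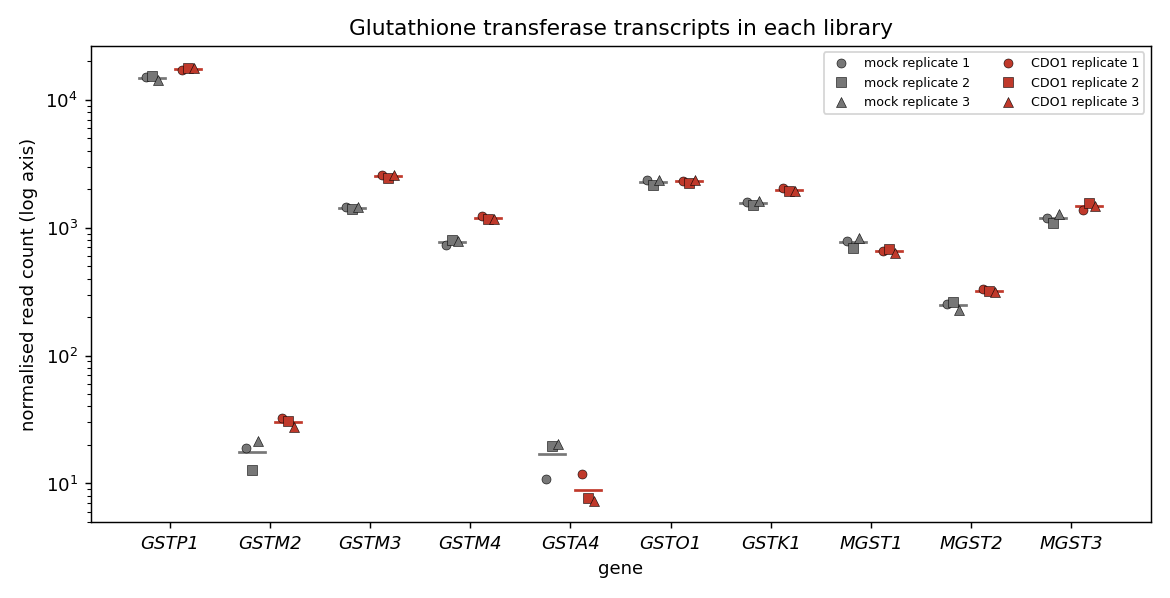
Normalised read count of the 10 glutathione transferase genes on a log axis, where points are libraries (mock in grey, CDO1 in red, replicate numbers by shape) and short lines are group means. GSTP1 lies above 14308 in every library, GSTM2 and GSTA4 lie below 33, and the groups overlap only for GSTA4 and GSTO1.

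GSTP1, the pi class enzyme (ENSG00000084207, GRCh38 chromosome 11, 67583595 to 67586656, plus strand), was by far the most abundant member. Its normalised count was 15135, 15314 and 14309 in mock replicates 1, 2 and 3 and 17005, 17775 and 17855 in CDO1 replicates 1, 2 and 3. Every CDO1 library lay above every mock library. The mean rose 1.18-fold, from 14919 ± 536 to 17545 ± 469 (SD, n = 3), with a log2 fold change of 0.23 ± 0.05 (SE; limma adjusted p = 0.00146). With each library's trend with GC content removed the log2 fold change was larger, at 0.37 (limma adjusted p = 4.28e-08). The GC content of its longest transcript is 62.5%, the highest of the members, and rank correlation between GC content and log2 fold change was -0.23 over genes averaging 100 or more, a description across genes that share these libraries. In limma without that correction, 76.9% of all genes tested had a smaller log2 fold change than GSTP1.

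Of the mu class, GSTM3 (ENSG00000134202, chromosome 1, 109733932 to 109741038, minus strand) encodes the mu enzyme known from brain and testis and is the most divergent in sequence of the 3. Its normalised count was 1449, 1399 and 1449 in the mock libraries and 2577, 2426 and 2588 in the CDO1 libraries. The groups stood far apart against the spread within each. The mean rose 1.77-fold, from 1432 ± 29.2 to 2530 ± 90.4 (SD, n = 3), with a log2 fold change of 0.82 ± 0.05 (SE; limma adjusted p = 5.41e-10). Over the libraries left out in turn and the other alternatives the log2 fold change stayed between 0.79 and 0.85. It was above that of 95.5% of all genes tested and of 99.4% of those with a mean of at least 100.

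GSTM4 (ENSG00000168765, chromosome 1, 109656081 to 109674836, plus strand), a mu enzyme with low activity toward common substrates, stood at 730, 807 and 791 in mock and 1228, 1170 and 1164 with CDO1. Again no mock library reached a CDO1 library. The mean rose 1.53-fold, from 776 ± 40.2 to 1187 ± 35.2 (SD, n = 3), with a log2 fold change of 0.61 ± 0.06 (SE; limma adjusted p = 2.72e-07).

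GSTM2 (ENSG00000213366, chromosome 1, 109668022 to 109709551, plus strand), a mu enzyme known from muscle, was scarce. It had 18.82, 12.68 and 21.49 normalised counts in mock, from 21, 13 and 19 reads, and 32.54, 30.65 and 27.55 with CDO1, from 33, 28 and 30 reads. The groups did not overlap, though CDO1 replicate 3 and mock replicate 3 lay only a few reads' worth apart. The mean rose 1.71-fold, from 17.7 ± 4.52 to 30.2 ± 2.52 (SD, n = 3), with a log2 fold change of 0.77 ± 0.27 (SE; limma adjusted p = 0.0411). This call was lost in DESeq2 (adjusted p = 0.154), in the authors' deposited table (0.145), without a filter on low values (limma, 0.0639) and without any 1 of 5 libraries: CDO1 replicate 1 (0.126), 2 (0.0946) or 3 (0.0687), or mock replicate 1 (0.0612) or 2 (0.172). The annotated span of GSTM2 overlaps that of GSTM4 by 6815 bases on the same strand, and the 2 genes share words of 50 bases, so the part of GSTM4 reads in its rise cannot be told apart here.

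Ratios within a library, which do not depend on its scaling, put the mu genes side by side. GSTM3 had 1.98, 1.73 and 1.83 times the normalised count of GSTM4 in the mock libraries and 2.10, 2.07 and 2.22 times in the CDO1 libraries. The ratio was higher in all 3 CDO1 libraries, by 0.21 on the log2 scale, and an exact 2-sided permutation test gave p = 0.1, the smallest that 3 against 3 libraries allow (0.3 after Benjamini-Hochberg adjustment over 3 pairs). For GSTM3 to GSTM2 the log2 ratio differed by 0.01 (exact permutation p = 0.9, adjusted 0.9) and for GSTM4 to GSTM2 by -0.19 (exact permutation p = 0.8, adjusted 0.9). In these 2 ratios the mock libraries spread widely, from 67.4 to 110 for GSTM3 to GSTM2, and GSTM2 rests on few reads. With 3 libraries a group these exact tests cannot reach the threshold whatever the values, so they cannot tell equal from unequal rises.

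The other mu genes were nearly silent. GSTM1 had 9.86 normalised counts in mock replicate 1, from 11 reads, and 0 or 1 read in each of the other 5 libraries. GSTM5 stood at 0 to 3.58 in all 6. The 2 counted transcripts that overlap GSTM3 on the opposite strand, those of GSTM5 and ENSG00000241720, stayed at or below 3.58 and 0.98 normalised counts. The strand setting of the counting is not known, and whether reads of the opposite strand were counted with GSTM3 was not tested.

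**Figure D2:**
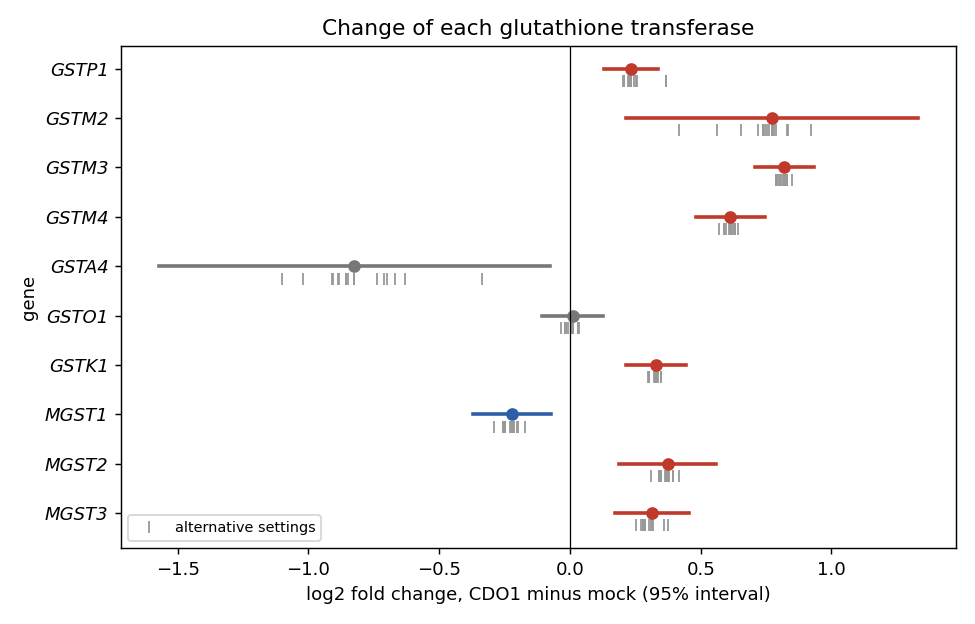
Change of each member from mock to CDO1 (difference of log2 normalised count plus 1), with its 95% interval in limma (red rose, blue fell, grey did not pass) and ticks below for the values under alternative settings. GSTM3 and GSTM4 have narrow intervals far above 0, GSTM2 and GSTA4 have wide ones, and GSTO1 lies on 0.

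Because the mu genes lie side by side on chromosome 1, the genes around them were read as well. Of 13 tested genes with a start site within 250 kb of the cluster, 3 rose and 2 fell, against 11.3% and 12.7% of all genes tested, with a median log2 fold change of 0.04. EPS8L3, a relative of the actin regulator EPS8 that starts 23.0 kb beyond the GSTM3 start, rose 1.51-fold, its mock mean being 835 ± 7.27 and its CDO1 mean 1264 ± 21.2 normalised counts (SD, n = 3; limma adjusted p = 1.42e-07). AHCYL1, which modulates inositol trisphosphate receptors and starts 244 kb away, rose 1.27-fold (limma adjusted p = 2.24e-05), and AMIGO1 rose 1.29-fold (0.0224). On the GSTM4 side the nearest tested gene, the AMP deaminase AMPD2, stood at 1360 ± 72.5 against 1434 ± 99.4 (SD, n = 3; limma adjusted p = 0.452). ATXN7L2 fell by 0.36 on the log2 scale (limma adjusted p = 0.0107), and SYPL2, at 4.32 against 15.4 normalised counts, fell by 1.63 (0.0101). In limma the call of AMIGO1 was lost without CDO1 replicate 2 (adjusted p = 0.065) or 3 (0.127) or mock replicate 3 (0.0673), that of ATXN7L2 without CDO1 replicate 1 (0.0619), and that of SYPL2 without CDO1 replicate 1 (0.0536) or mock replicate 3 (0.0724). AMIGO1 also did not pass in the authors' deposited table (adjusted p = 0.0688).

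**Figure D3:**
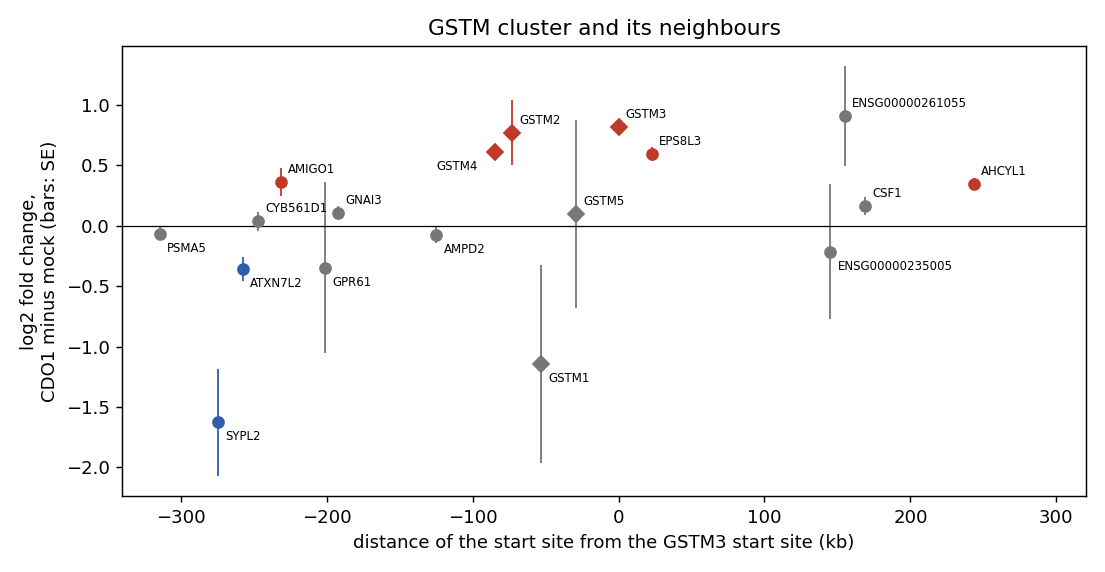
Log2 fold change (CDO1 minus mock, bars are SE) of tested genes of the GSTM cluster (diamonds) and its neighbours (circles) against the distance of their start site from that of GSTM3 in kb, with red for genes that rose, blue for genes that fell and grey for those that did not pass. GSTM4, GSTM2, GSTM3 and EPS8L3 lie between 0.60 and 0.82, and AMPD2, at -125 kb, lies at -0.08. The nearly silent GSTM1 and GSTM5, which start between GSTM2 and GSTM3, lie at -1.14 and 0.10.

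To set the mu genes beside GSTP1, the sequence before their start sites is printed from RefSeq (GRCh38.p14), up to the first exon of any GENCODE transcript. Capitals mark GC boxes (GGGCGG on either strand). The windows are chr1:109655849-109656080 (plus strand) for GSTM4, chr1:109667807-109668021 (plus) for GSTM2 and chr1:109741039-109741288 (minus) for GSTM3. For GSTP1 only the stretch of 30 bases that holds its motifs is shown, chr11:67583746-67583775 (plus), which lies before the RefSeq start but inside the GENCODE span of the gene, with its antioxidant response element core (TGACNNNGC), which overlaps an AP-1 site (TGANTCA), and its GC boxes in capitals.
GSTM4: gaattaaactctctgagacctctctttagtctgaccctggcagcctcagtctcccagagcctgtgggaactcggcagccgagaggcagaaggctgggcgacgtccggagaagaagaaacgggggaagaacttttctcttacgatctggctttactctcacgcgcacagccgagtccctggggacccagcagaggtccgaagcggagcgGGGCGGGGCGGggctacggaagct
GSTM2: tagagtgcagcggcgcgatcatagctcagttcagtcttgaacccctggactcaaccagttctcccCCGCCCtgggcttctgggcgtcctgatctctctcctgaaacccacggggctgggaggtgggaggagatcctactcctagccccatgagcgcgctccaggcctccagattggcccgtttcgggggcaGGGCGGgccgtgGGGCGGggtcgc
GSTM3: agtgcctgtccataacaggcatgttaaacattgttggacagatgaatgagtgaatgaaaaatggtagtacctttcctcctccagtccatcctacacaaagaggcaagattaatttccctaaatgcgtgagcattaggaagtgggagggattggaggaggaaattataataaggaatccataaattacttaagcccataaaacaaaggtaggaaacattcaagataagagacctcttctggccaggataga
GSTP1: TGACTCAGCactgGGGCGGagcgGGGCGGg

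In the 250 bases before the RefSeq start the GSTM4 window held 2 GC boxes, GSTM2 3 and GSTM3 none, with 18, 14 and 1 CpG dinucleotides. The median over 35116 promoter entries was 11 CpG. None of these 3 windows held the antioxidant response element core or an AP-1 site, searched on both strands. The window of GSTP1 had 28 CpG, 2 GC boxes and 1 match to each of the other motifs, which begins 66 bases before the start site. Matches to the antioxidant core were also found in the windows of GSTO1 (2) and GSTA4 (1), and in none of GSTK1, MGST1 and MGST3. The windows of GSTO1, GSTK1 and MGST3 lie inside the GENCODE spans of these genes, as does the match of GSTA4. RefSeq entries were matched for 9 of the 10 members, MGST2 being the other, and MGST1 has 3 start sites. Over all promoter entries 10.9% held the antioxidant core, 6.57% the AP-1 site and 42.6% a GC box. A match says only that the letters are there.

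GSTA4, the alpha class enzyme that conjugates the lipid peroxidation product 4-hydroxynonenal (ENSG00000170899, chromosome 6, 52977948 to 52995378, minus strand), was, like GSTM2, among the 2 scarce members. It had 10.75, 19.51 and 20.36 normalised counts in mock, from 12, 20 and 18 reads, and 11.83, 7.66 and 7.35 with CDO1, from 12, 7 and 8 reads. The groups overlapped through mock replicate 1, which lay below CDO1 replicate 1. The mean was 8.95 ± 2.5 with CDO1 against 16.9 ± 5.32 (SD, n = 3), with a log2 fold change of -0.82 ± 0.36 (SE; limma adjusted p = 0.106). Without mock replicate 1 the log2 fold change was -1.10 and passed narrowly (limma adjusted p = 0.0494).

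GSTO1, the omega enzyme that removes glutathione from protein thiols and reduces dehydroascorbate (ENSG00000148834, chromosome 10, 104235356 to 104267459, plus strand), was second in level per kb, though GSTM3 had more normalised counts with CDO1. Its normalised count was 2354, 2151 and 2375 in mock and 2319, 2242 and 2365 with CDO1. The CDO1 libraries lay within the range of the mock libraries. The log2 fold change was 0.01 ± 0.06 (SE; limma adjusted p = 0.92), with a 95% interval from -0.10 to 0.13, so a change of the size seen for GSTM4 lies outside it. GSTO2, its neighbour and paralog with strong dehydroascorbate reductase activity, fell from 1077 to 844 normalised counts on average (log2 fold change -0.35; limma adjusted p = 0.000196). The ratio of GSTO2 to GSTO1 was 0.437, 0.508 and 0.467 in mock and 0.363, 0.387 and 0.348 with CDO1, lower in all 3 CDO1 libraries. That pair was chosen after its values were seen and was not tested.

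GSTK1, the kappa enzyme (ENSG00000197448, chromosome 7, 143244093 to 143270854, plus strand), had 1582, 1514 and 1618 normalised counts in mock and 2050, 1921 and 1947 with CDO1. The lowest CDO1 library lay well above the highest mock library, by more than either group's spread. The mean rose 1.26-fold, from 1571 ± 52.9 to 1973 ± 68.1 (SD, n = 3), with a log2 fold change of 0.33 ± 0.06 (SE; limma adjusted p = 0.000142). No other counted gene overlaps its span.

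The 3 membrane-bound members did not move alike. MGST3, which conjugates leukotriene A4 and reduces lipid peroxides (ENSG00000143198, chromosome 1, 165630861 to 165661796, plus strand), had 1182, 1080 and 1282 normalised counts in mock and 1379, 1554 and 1470 with CDO1. The mean rose 1.24-fold, from 1181 ± 101 to 1467 ± 87.5 (SD, n = 3), with a log2 fold change of 0.31 ± 0.07 (SE; limma adjusted p = 0.00153). The spread within each group was wider than for GSTK1, and mock replicate 3 came nearest to the CDO1 libraries without reaching them.

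MGST2, which can make leukotriene C4 (ENSG00000085871, chromosome 4, 139665768 to 139740745, plus strand), stood at 255, 262 and 226 in mock and 332, 317 and 312 with CDO1. The mean rose 1.29-fold, from 248 ± 19.0 to 321 ± 10.4 (SD, n = 3), with a log2 fold change of 0.37 ± 0.09 (SE; limma adjusted p = 0.00379). The overlapping genes on the opposite strand that were counted, MAML3 and the pseudogene H3F3AP6, had log2 fold changes of -0.56 (adjusted p = 0.125) and -0.75 (adjusted p = 0.00284) in limma, both with the sign opposite to MGST2.

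MGST1, the enzyme of the endoplasmic reticulum and outer mitochondrial membrane (ENSG00000008394, chromosome 12, 16347142 to 16609259, plus strand), went the other way. It had 790, 699 and 825 normalised counts in mock and 658, 683 and 639 with CDO1. The groups did not overlap, but mock replicate 2 lay close above CDO1 replicate 2. The mean fell from 771 ± 64.7 to 660 ± 22.1 (SD, n = 3), with a log2 fold change of -0.22 ± 0.07 (SE; limma adjusted p = 0.0282). The call was lost in limma without CDO1 replicate 1 (adjusted p = 0.086) or 3 (0.12) and without mock replicate 1 (0.119) or 3 (0.0978). The normalised count of MGST1 was 0.668, 0.648 and 0.643 of that of MGST3 in mock and 0.477, 0.440 and 0.435 with CDO1, a ratio chosen after its values were seen and not tested. Coding sequences of the 3 MGST genes were 47.3% to 51.1% identical, with no identical run over 11 bases.

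Levels can be compared between genes only per length. Divided by the union of annotated exons, the mean level in mock was 7807 ± 281 normalised counts per kb for GSTP1 (SD, n = 3), 1356 ± 72.9 for GSTO1, 372 ± 12.5 for GSTK1 and 302 ± 6.15 for GSTM3. MGST3, at 141 ± 12.0 per kb, and GSTM4, at 135 ± 7.0, followed and did not differ beyond their spread. MGST1 stood at 104 ± 8.70 and MGST2 at 77.8 ± 5.97, and GSTA4 (7.76 ± 2.44) and GSTM2 (1.94 ± 0.496) closed the order. With CDO1 GSTM3 reached 533 ± 19.0 per kb and stood above GSTK1 at 467 ± 16.1, and GSTM4, at 207 ± 6.13, stood above MGST3 at 175 ± 10.4. Neither order held by the longest or the principal coding transcript, where GSTK1 stood above GSTM3 and MGST3 above GSTM4 with CDO1 as well. GSTP1 made up 75.7% ± 0.735 of the summed level per kb of the 10 genes with CDO1 and 75.8% ± 1.35 in mock (SD, n = 3). The share of GSTM3 was 4.4% ± 0.189 against 2.93% ± 0.0998, and that of GSTO1 was 11.3% ± 0.340 against 13.2% ± 0.866. The summed normalised count of the 10 genes was 28031 ± 401 with CDO1 and 23226 ± 297 in mock (SD, n = 3), 1.21-fold higher, given as a description.

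The middle of that order depended on the length used. GSTP1 came first and GSTO1 second under all 3 lengths tried, the union of exons, the longest transcript and the principal coding transcript, and GSTA4 and GSTM2 took the last 2 places. The mock rank of GSTM3 was 4 with the union of exons, 6 with the longest transcript and 7 with the principal coding transcript. The share of GSTP1 was 69.2% with CDO1 and 69.1% in mock by the principal coding transcript.

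**Figure D4:**
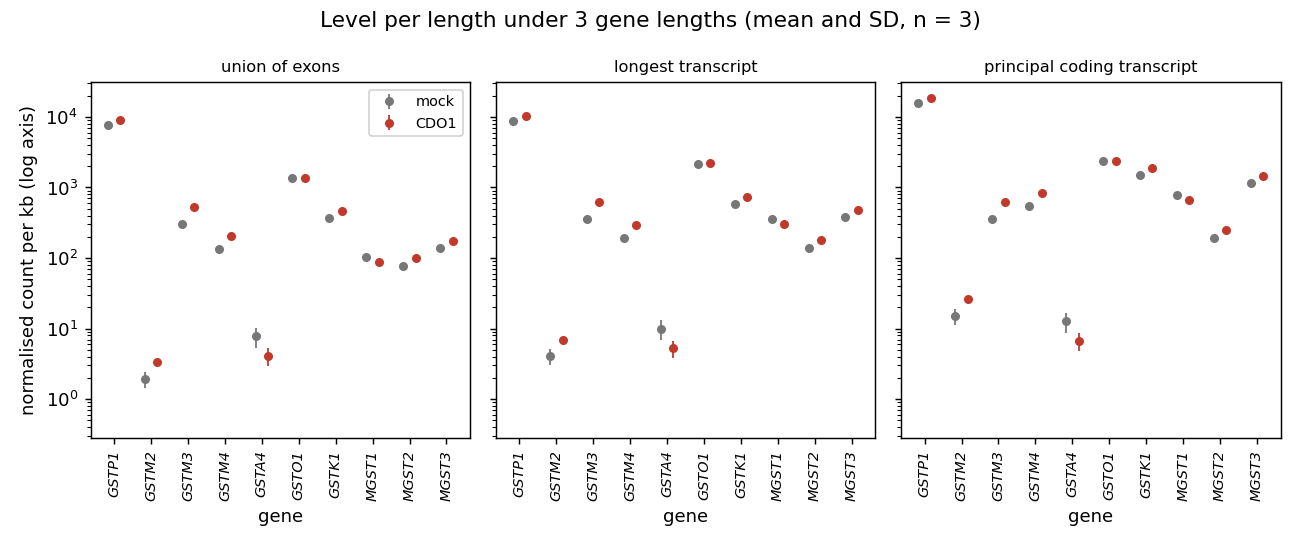
Normalised count per kb of each member on a log axis, with the mean and SD of 3 libraries per group (grey mock, red CDO1), for the union of annotated exons, the longest transcript and the principal coding transcript. GSTP1 is highest and GSTO1 second in each panel, and the order of the middle genes shifts between panels.

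Other genes of the family were read as well. Of 10 other soluble transferase genes with a row, 9 were tested, and 1 rose, 2 fell and 6 did not pass, against 24.0% called among all genes, with a median log2 fold change of -0.04. GSTCD, which carries a transferase domain, rose 1.21-fold (limma adjusted p = 0.00456). Besides GSTO2, the theta gene GSTT2B fell, from 156 to 122 normalised counts on average (limma adjusted p = 0.0353), though its near-identical copy GSTT2 stood at 32.26 to 62.22 in mock and 35.03 to 44.37 with CDO1, and reads of the pair may be shared. In limma the call of GSTT2B was lost without any 1 CDO1 library (adjusted p = 0.0661, 0.0702 and 0.106 for replicates 1, 2 and 3) and without mock replicate 2 (0.117) or 3 (0.0761). GSTZ1, which isomerises maleylacetoacetate in tyrosine breakdown, was at 427 in both groups on average. Of 3 tested relatives of the MGST enzymes 2 rose, against 11.3% of all genes tested. PTGES, the prostaglandin E2 synthase, rose 1.34-fold, from 739 ± 31.4 to 992 ± 28.0 (SD, n = 3). ALOX5AP, the 5-lipoxygenase activating protein, rose from 2.69, 1.95 and 13.58 to 16.76, 17.52 and 17.45 (limma adjusted p = 0.0112). LTC4S, nearly silent, averaged 1.98 in mock and 0.31 with CDO1. Its log2 fold change of -1.21 did not pass (limma adjusted p = 0.226). In the authors' deposited table neither ALOX5AP (adjusted p = 0.0679) nor GSTT2B (0.113) passed.

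Of 6 genes that supply glutathione, only SLC3A2, the partner chain of the cystine transporter, rose (1.13-fold; limma adjusted p = 0.018), against 11.3% higher among all genes tested, with a median log2 fold change of 0.10 over the list. GCLC, also of this list, averaged 1160 normalised counts in mock and 1287 with CDO1, with no overlap between the groups. It did not pass in limma (adjusted p = 0.062) or DESeq2 (0.092) but did in edgeR (0.0394). The call of SLC3A2 was lost in limma without CDO1 replicate 2 (adjusted p = 0.101) or mock replicate 1 (0.073). Of 7 genes for export of conjugates 2 rose and 2 fell, against 11.3% and 12.7% of all genes tested. ABCC2, the apical pump for glutathione conjugates, stood at 835, 694 and 772 normalised counts in mock and 375, 366 and 323 with CDO1, with no overlap, and fell by 1.11 on the log2 scale (limma adjusted p = 2.86e-09). ABCG2, an efflux pump with broad substrates, rose 1.68-fold (limma adjusted p = 0.000149), and ABCC1 fell by 0.17 on the log2 scale (limma adjusted p = 0.0258). The call of ABCC1 was lost in limma without CDO1 replicate 1 (adjusted p = 0.115) or 3 (0.0763) or mock replicate 1 (0.0864) or 2 (0.0866).

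Of 10 tested genes that process conjugates to mercapturates 4 rose and 2 fell, against 11.3% and 12.7% of all genes tested. The median log2 fold change over the list was 0.32. Without mock replicate 1 the calls of CNDP2 (limma adjusted p = 0.15), a dipeptidase that rose, and GGT5 (0.145), a scarce glutamyltransferase that fell, were lost. CNDP2 was also lost without any 1 CDO1 library (0.0734, 0.0952 and 0.0858 for replicates 1, 2 and 3), and GGT5 without CDO1 replicate 1 (0.0511) or 3 (0.204). GGT6, which rose, was lost without CDO1 replicate 2 (0.175) or 3 (0.0727) or mock replicate 2 (0.0756) or 3 (0.0949). In the authors' deposited table neither GGT6 (adjusted p = 0.104) nor GGT5 passed. DPEP1, the dipeptidase that acts on the cysteinylglycine conjugate, rose from 67.21, 58.52 and 47.51 to 177.49, 178.45 and 205.73 normalised counts, 3.24-fold on average. GGT1, the glutamyltransferase that takes the first step, rose 1.39-fold (limma adjusted p = 5.74e-06), while GGT7 fell by 0.51 on the log2 scale (0.00404). Of 11 tested transcription regulators known for transferase genes 1 rose, 1 fell and 9 did not pass, against 24.0% called among all genes tested. BACH1, a repressor at antioxidant elements, rose 1.19-fold (limma adjusted p = 0.0115). MAFG, a small partner protein at those elements, fell by 0.21 on the log2 scale (limma adjusted p = 0.0158). In limma BACH1 was lost without CDO1 replicate 3 (adjusted p = 0.0876), and MAFG without CDO1 replicate 1 (0.069) or 3 (0.0904) or mock replicate 1 (0.0863). NFE2L2, which encodes the activator NRF2, stood at 1561, 1368 and 1596 in mock and 1576, 1220 and 1500 with CDO1, and these ranges overlapped. KEAP1 likewise overlapped between the groups, with a log2 fold change of 0.05 (limma adjusted p = 0.634).

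**Figure D5:**
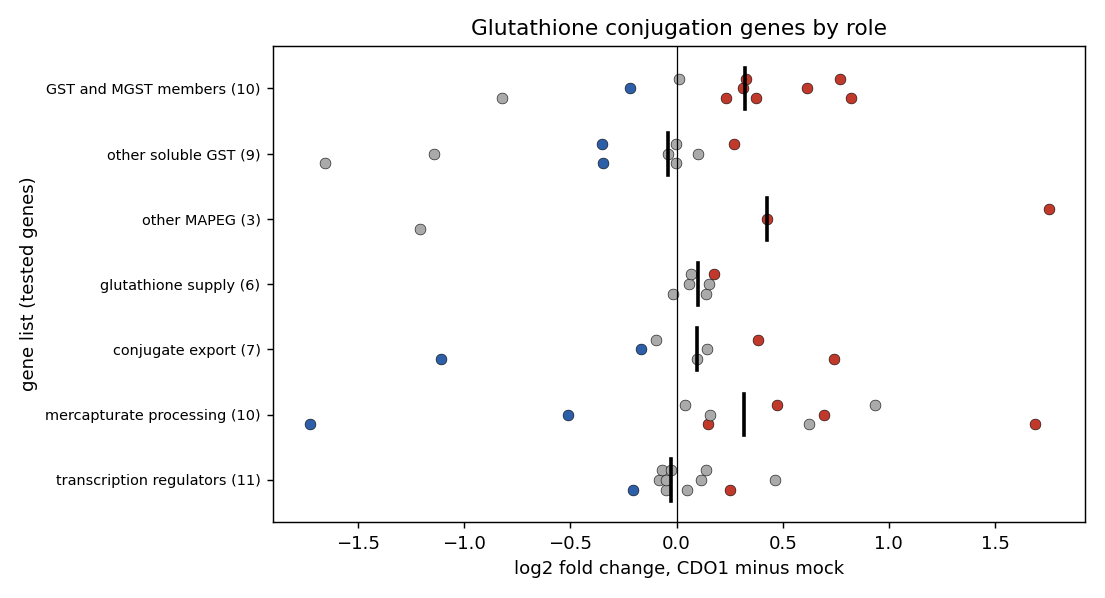
Change from mock to CDO1 (difference of log2 normalised count plus 1) of each tested gene of the transferase members and 6 lists of related genes, with the number of tested genes in parentheses. Red points rose, blue points fell, grey points failed the test, and each black bar gives a list's median, 0.32 for the members, -0.04 for the other soluble transferases and 0.32 for mercapturate processing.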

How the data were processed

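RNA of 6 KM12 libraries, 3 with CDO1 overexpression and 3 mock, was sequenced by the submitters. Per the submitters' processing notes, STAR 2.5.1b, DESeq2 1.10.1 and genome build GRCh38 were used; which program counted reads, with which strand setting and gene annotation, is not given in the sources used here. Per gene and library, the deposited table gives a normalised signal, together with the authors' comparison as log2 fold changes and p-values, per the file headers. The authors' log2 fold changes of the scarce members were smaller in size than those in limma. They were 0.42 against 0.77 for GSTM2 and -0.34 against -0.82 for GSTA4. Dividing each column by its smallest step recovered whole reads for 100% of values, within 0.001 of a read, so the values are counts over a size factor; the 17516640 to 22198173 recovered reads per library set the precision.

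Genes with a mean of at least 1 were tested with limma 3.58.1 in R 4.3.3 (trend) on log2 of the deposited signal plus a pseudocount of 1, with Benjamini-Hochberg adjustment over all of them and a threshold of 0.05. Log2 fold changes in limma are differences of mean log2 values on that scale, where the pseudocount draws those of scarce genes toward 0. Changes given as a multiple (such as 1.53-fold) are ratios of mean normalised counts without a pseudocount. edgeR 4.0.16 and DESeq2 1.42.0 on the recovered reads, other filters, pseudocounts and scalings, a GC correction, a replicate block and each library left out in turn were alternatives. The fit was tested on simulated data. The genes changed there were more abundant than GSTM2 and GSTA4, and changed more than GSTP1, GSTK1 and the MGST genes. That run therefore does not bear on the calls of these members. Of the identifiers, 26577 matched the table of gene names and 26742 the GENCODE release 29 annotation.

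All 10 members are named, with up to 3 genes of smallest p from each list of related genes, other list genes with their values, genes overlapping a member, and CDO1. Some list genes are not reported here. The members and lists were chosen with earlier results of these data known. Ratios within libraries were compared by exact permutation. Promoters came from RefSeq (GRCh38.p14) and coding sequences from GENCODE release 29.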

Additional observations from a re-analysis of the deposited data

How the results depend on the processing

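GSTK1, GSTM3, GSTM4, GSTP1, MGST2 and MGST3 stayed higher with CDO1 and past the threshold in all 22 alternatives but the one that also asked for a change of 1 or more on the log2 scale. That rule left 0 members higher, 0 lower, and 174 genes higher and 985 lower of all tested. At an adjusted p of 0.01, 1543 genes were higher and 0 members lower. With a library left out in turn, 0 to 1 members were lower: 0 without CDO1 replicate 1, CDO1 replicate 3 or mock replicate 3, and without mock replicate 1 the 1 was GSTA4 in place of MGST1. The log2 fold change of GSTO1, which passed in no alternative, changed sign to -0.0205 with the GC trend removed, -0.0167 with edgeR on library totals, -0.0158 with equal library totals and -0.0205 with the replicate block and GC trend removed. Over libraries left out it ran from -0.0347 (without mock replicate 2) to 0.0365 (without mock replicate 3), and was -0.00683 without CDO1 replicate 3. The cause of these shifts was not tested.

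The replicate numbers did not pair the libraries: deviations of same-numbered libraries correlated at 0.01, 0.08 and -0.00, and 1 of 3 CDO1 libraries correlated best with its own number. With the replicate block 2845 genes were higher and 3073 lower, and 7 members higher and 1 lower. Removing the GC trend gave 3361 and 3034. Depth limits GSTM2 and GSTA4, which rest on 7 to 33 reads per library.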
